A study of Arabidopsis thaliana with 4 samples.

Results

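The comparison described here sets root tips of Arabidopsis thaliana kept for 12 h on 0.5 µM narciclasine against root tips kept for 12 h without it. It takes in every gene with at least 1 RPKM (reads scaled by gene length and by the size of the library) in either of these libraries, which gave 18940 of the 33602 identifiers in the series, 18456 of them annotated as protein coding. All 4 groups of the series were Col-0 wild type seedlings, 5 days old, grown on half-strength MS agar, and each group was 1 library made from excised root tips of 3 mm: control 2 h, narciclasine 2 h, control 12 h and narciclasine 12 h. The controls were moved to fresh medium lacking the compound. Because each group held 1 library, no ratio below has a replicate check, no p-value was computed, and intervals cover counting error only.

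Narciclasine is an alkaloid of the daffodil family that binds the large ribosomal subunit and blocks peptide bond formation. The root tip holds the dividing cells of the meristem, the elongating cells behind them and the first differentiating cells, so genes of division, wall loosening and water uptake are normally active side by side in it. Plant cells with disturbed mitochondria are known to switch on nuclear genes in response, among them alternative respiratory enzymes.

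A gene was called higher or lower when its RPKM differed at least 2-fold between the 12 h libraries and the exact 95% counting interval of that ratio, from read counts recovered from the RPKM values, left out 1. Values in parentheses after a fold are that interval. Where 4 RPKM values follow a gene they stand in the order control 2 h, narciclasine 2 h, control 12 h and narciclasine 12 h. Where a gene had no read in 1 library, its fold is a bound against a floor of 3 reads there. A gene at 1 RPKM in only 1 of the 12 h libraries passes the filter through the side where it is higher. Such members push list counts and medians towards that side.

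The libraries held between 11880278 and 14724075 reads. Marker lists of 6 root tissues had no member at 0 in either 12 h library; root cap markers were not analysed here. The 6 markers of meristem and quiescent centre summed to 45.2 RPKM in control 12 h and 46.6 in narciclasine 12 h, and 4 endodermis markers to 728 and 397. The near-equal meristem sums hide members on both sides. PLT2 was called higher, at 2.72 and 5.79 RPKM, and SCR was above control, at 21.6 and 25.6. PLT1, SHR, WOX5 and RGF1 were below control, and none of these was called. The 4 hair cell markers summed to 574 and 223 RPKM, with 3 of 4 called lower. In a bulk sample fewer cells of a type and less RNA per cell cannot be told apart. Markers of green tissue were low but unequal: 3 shoot genes summed to 17.6, 11.2, 46.5 and 9.0 RPKM over the 4 libraries, and their part in the genes called lower at 12 h was not tested. The 12 h control itself differed from the 2 h control. Between the controls 749 of 18775 genes (3.99%) were higher at 12 h by the same rule and 334 (1.78%) lower, and WOX5, which keeps the stem cells of the quiescent centre, stood at 19.8, 7.86, 1.91 and 1.45 RPKM. Calls that also held against control 2 h are therefore counted beside the main gene groups.

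At 12 h 2375 of 18940 genes were called higher (12.5%) and 2893 lower (15.3%), 27.8% in all. The median log2 ratio was 0.01, the middle 50% of genes lay between -0.62 and 0.57, and the central 90% between -2.02 and 1.67. Of the called genes, 589 were higher and 962 lower by at least 4-fold, and 194 and 239 by at least 10-fold, counting genes with no read in the other library. Genes called lower took 17.1% of the reads on genes in control 12 h and 5.69% in narciclasine 12 h, whereas genes called higher took 5.42% and 16.6%. Among the 100 genes of highest RPKM in control 12 h, 26 were called lower and 4 higher. Among the 100 of highest RPKM in narciclasine 12 h, 17 were called higher and 3 lower. The direction thus depends on which library ranks the genes. Against control 2 h the treated 12 h library gave 2400 genes higher (12.7% of 18957) and 3115 lower (16.4%). Against both controls 1593 genes were higher and 2282 lower, which is 67.1% and 78.9% of the calls against control 12 h. Both contrasts use the same narciclasine 12 h library, so a call that holds against both is no independent check of that library.

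**Figure D1:**
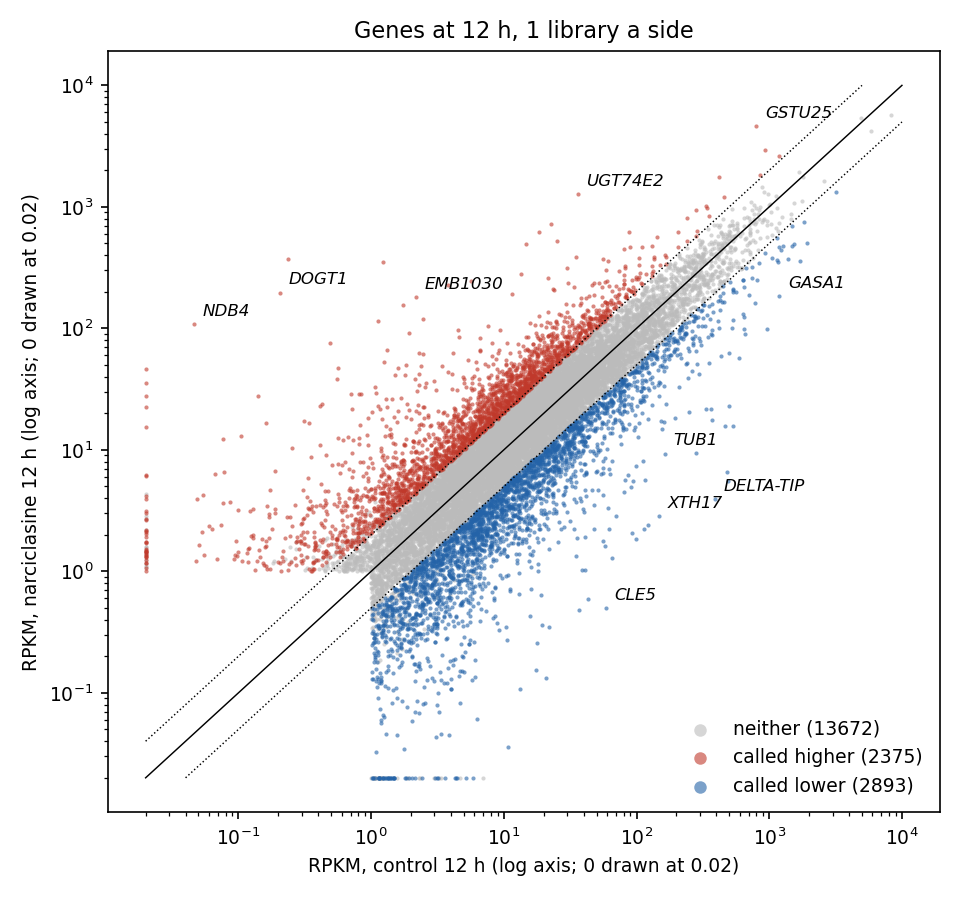
RPKM of each of the 18940 genes in control 12 h (horizontal, log axis) and narciclasine 12 h (vertical, log axis), 1 library a side. Red points are the 2375 genes called higher and blue points the 2893 called lower; the solid line is equality and the dotted lines a 2-fold difference, and genes listed at 0 are drawn at the edge.

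Applied to the 2 h libraries, the same rule called 955 of 18792 genes higher with narciclasine (5.08%) and 341 lower (1.81%). These contrasts share no library. 383 genes were higher at both times, 40.1% of the 2 h calls and 16.1% of the 12 h calls. 137 genes were lower at both times, 40.2% of the 2 h calls and 4.74% of the 12 h calls. The difference between the times was not tested.

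**Figure D2:**
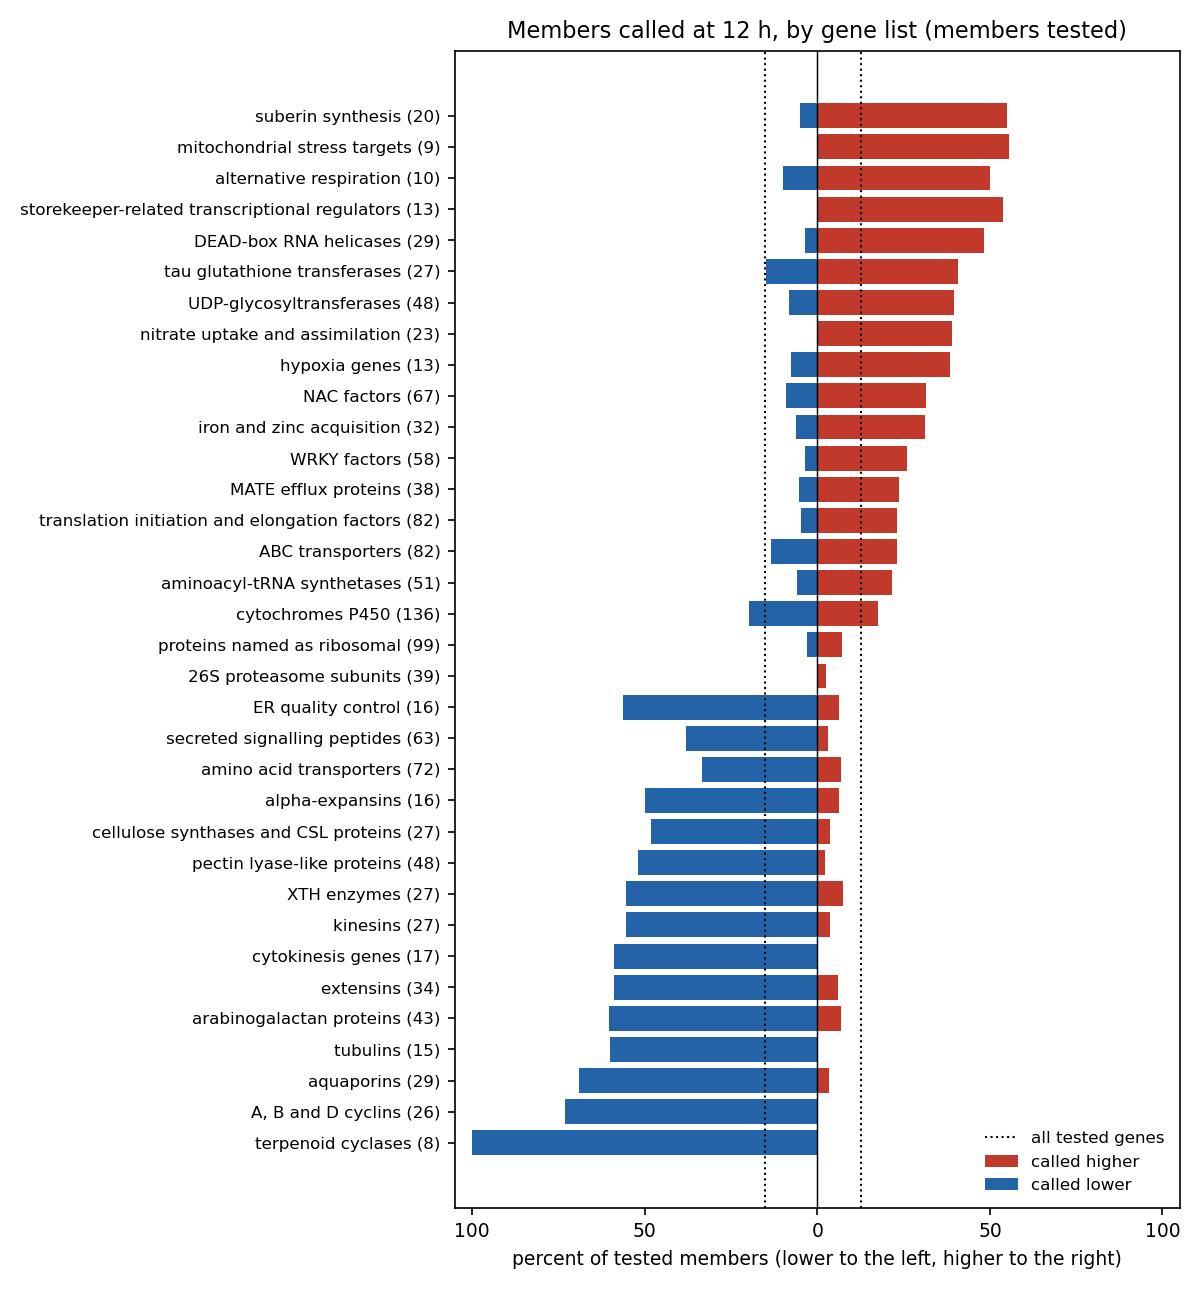
Percent of the tested members of 34 gene lists called lower (blue, to the left) or higher (red, to the right) in narciclasine 12 h against control 12 h, with the number of members tested in parentheses. Dotted lines mark the shares over all 18940 genes, 15.3% lower and 12.5% higher; the lists plotted for division, cell wall and aquaporins lie on the lower side, those for suberin, alternative respiration and conjugation on the higher side.

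Genes of the alternative respiratory chain and of mitochondrial stress were higher in part, several of them from near 0. The plant inner mitochondrial membrane holds NAD(P)H dehydrogenases and an alternative oxidase that pass electrons to oxygen without pumping protons. 5 of 10 measured genes of this chain were called higher and 1 lower, with a median log2 ratio of 0.93 beside 0.01 over all genes, and all of these calls held against both controls. Of the 10, 3 reached 1 RPKM in narciclasine 12 h alone, all called higher, and 0 in control 12 h alone. The filter itself thus favours higher members of this list. NDB4, an external NAD(P)H dehydrogenase, had 0.19, 23.4, 0.0465 and 108 RPKM: both controls were near 0, and narciclasine 12 h was above narciclasine 2 h. NDA1, an internal dehydrogenase, had 0.308, 6.09, 0.424 and 23.9 RPKM and was 56.5-fold higher (29.6 to 124). AOX1A, the main stress-responsive alternative oxidase, had 61, 509, 81.1 and 449 RPKM, with the higher of the treated values at 2 h. NDB2 had 106, 215, 80.6 and 250.2 RPKM and was 3.1-fold higher (2.96 to 3.25). The uncoupling protein gene UCP2 was the 1 lower member, at 10.7, 8.19, 7.94 and 3.03 RPKM, 2.62-fold lower (1.96 to 3.53).

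Among 9 measured genes listed as targets of mitochondrial stress signalling, 5 were higher and 0 lower, with a median of 1.72. Here too 2 of the higher genes reached 1 RPKM in narciclasine 12 h alone. BCS1 (AT3G50930), an AAA-type ATPase of the outer mitochondrial membrane, had 13.8, 220.4, 23.3 and 210.3 RPKM. MGE1, a co-chaperone of the mitochondrial Hsp70, had 30.3, 58.8, 25.3 and 83.4 RPKM, and TIM17-1, a translocase subunit of the inner membrane, had 0, 0.319, 0.0957 and 1.78 RPKM. Genes outside this list had higher ratios. AT2G21640, annotated as a marker of the oxidative stress response and chosen after its values were seen, had 4.75, 88, 5.65 and 246 RPKM and was 43.4-fold higher (31.3 to 62.2). AT5G09570, a CHCH protein related to the cytochrome oxidase assembly factor Cox19, had 0.297, 5.05, 0 and 46.2 RPKM: 473 reads in narciclasine 12 h and none in control 12 h, at least 127-fold higher. The nucleoside triphosphatase gene AT2G18190 had 0, 0.331, 0 and 35.3 RPKM, at least 208-fold higher, and its neighbour AT2G18193 31.8, 641, 18.6 and 625 RPKM. NAC13, a transcription factor anchored in the endoplasmic reticulum membrane that is known to be released under mitochondrial stress and to bind promoters of such genes, had 7.42, 101, 6.56 and 83 RPKM.

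NAC13 and its relatives bind the mitochondrial dysfunction motif, searched here as CTTG followed after 5 bases of any kind by CAAG or CACG, on both strands of the 300 bases before each annotated gene start (RefSeq annotation of TAIR10.1). 210 of 18455 tested coding genes held a match (1.14%), 29 of 2838 genes called lower (1.02%) and 75 of 2319 called higher (3.23%). The share was 10.3% among the 378 coding genes higher at both times and 16.7% (32 of 192) among those higher by at least 10-fold. The shares are descriptions, with no test. The first form lies within the wider motif of the DNA damage regulator SOG1, CTT followed after 7 bases of any kind by AAG, which 10.7% of all tested promoters and 28.6% of the at least 10-fold higher ones held. AT2G04050 (MATE efflux protein, 0.0481, 31.2, 0.235 and 369 RPKM), AT2G21640 and NDA1 are shown because they combine a match with a gain of over 10-fold; capitals mark the matches, and each window runs 5′ to 3′ up to the base before the gene start.

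AT2G04050 (chr2:1339469-1339768, minus strand): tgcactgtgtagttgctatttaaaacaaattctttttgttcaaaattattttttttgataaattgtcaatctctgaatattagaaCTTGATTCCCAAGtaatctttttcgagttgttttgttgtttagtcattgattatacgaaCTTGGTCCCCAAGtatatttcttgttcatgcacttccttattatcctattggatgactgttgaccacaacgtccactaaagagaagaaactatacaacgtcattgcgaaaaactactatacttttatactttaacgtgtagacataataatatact

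AT2G21640 (chr2:9254078-9254377, plus strand): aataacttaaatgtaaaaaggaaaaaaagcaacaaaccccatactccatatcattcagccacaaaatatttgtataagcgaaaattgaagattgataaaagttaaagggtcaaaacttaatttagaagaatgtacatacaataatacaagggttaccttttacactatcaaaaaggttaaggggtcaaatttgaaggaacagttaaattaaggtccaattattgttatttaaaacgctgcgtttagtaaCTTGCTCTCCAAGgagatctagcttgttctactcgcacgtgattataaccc

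NDA1 (chr1:2203804-2204103, plus strand): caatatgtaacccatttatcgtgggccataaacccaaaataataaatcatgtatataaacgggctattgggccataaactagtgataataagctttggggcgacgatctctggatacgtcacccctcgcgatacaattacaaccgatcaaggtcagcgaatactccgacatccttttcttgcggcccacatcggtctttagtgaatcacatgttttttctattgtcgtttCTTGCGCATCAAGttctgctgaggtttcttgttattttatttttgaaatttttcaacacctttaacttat

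No match lay in the windows of AOX1A or NDB4, which says only that these letters are absent from these 300 bases.

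**Figure D3:**
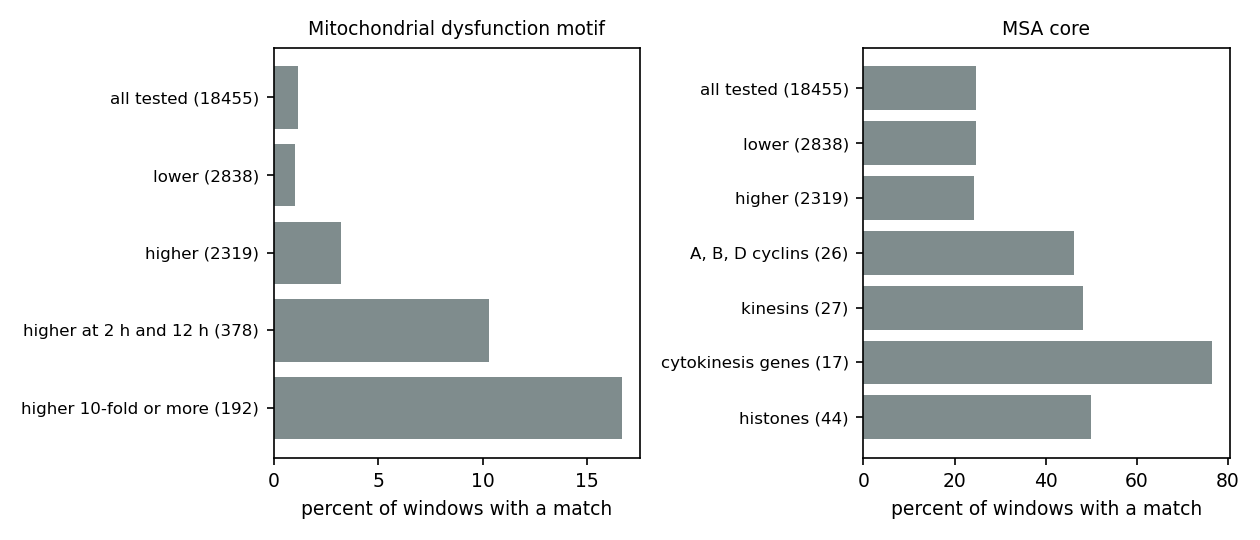
Percent of 300-base promoter windows holding the mitochondrial dysfunction motif (left) or the MSA core (right), with the number of windows in parentheses. The left panel climbs from 1.14% of all tested coding genes to 16.7% of those higher by at least 10-fold. In the right panel all tested genes stand at 24.7%, the cytokinesis genes at 76.5% and the histones at 50%.

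Proteins with a DUF295 domain, a plant family of F-box-like and organelle-directed proteins of little known function, had 16 of 69 members past the filter. Of these, 8 reached 1 RPKM in narciclasine 12 h alone, 7 of them called higher, and 1 reached it in control 12 h alone, so the filter itself favours higher members and the family is described by its genes only. AT5G55150 had 0.0635, 11.4, 0.0777 and 6.52 RPKM and AT5G55270 0.0548, 1.12, 0.0671 and 6.28 RPKM. AT5G52930 had 0, 0.808, 0 and 3.0 RPKM, and its near neighbours AT5G52940, AT5G53230 and AT5G53240 reached 1.55, 1.7 and 1.4 RPKM in narciclasine 12 h from 0.12, 0 and 0 in control 12 h. These levels are low, and reads of near-identical neighbours may have been shared among them.

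Enzymes and transporters that modify, conjugate and export foreign compounds were higher in part. 11 of 27 tau-class glutathione transferases were higher and 4 lower, median 0.41, and 9 and 4 of these held against both controls. GSTU25 had the largest gain in RPKM of all coding genes, at 1039, 2181, 801 and 4590.0 RPKM, 5.73-fold higher (5.6 to 5.87), and its tandem neighbour GSTU24 had 537, 899, 418 and 1746 RPKM; reads of such near-identical copies can be split by the counting. GSTU12 and GSTU11 were low in both controls and 30.1-fold higher (15.1 to 70.3) and 20.3-fold higher (12 to 37.6) at 12 h. The class also held lower genes: GSTU14 had 36.7, 38.2, 40.6 and 1.02 RPKM, 39.8-fold lower (22 to 80.4), and GSTU26, next to GSTU24 and GSTU25 on the chromosome, had 169, 126, 244 and 39.1 RPKM. Neighbouring copies of 1 family thus stood on opposite sides.

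Of 48 UDP-glycosyltransferases, which attach sugars to hormones and toxins, 19 were higher and 4 lower, and 18 of the higher ones held against both controls. Of the 48, 5 reached 1 RPKM in narciclasine 12 h alone, all called higher, and 1 in control 12 h alone, called lower. DOGT1, which glucosylates the fungal toxin deoxynivalenol and brassinosteroids, had 0.21, 17.7, 0.206 and 197 RPKM. UGT74E2, which acts on the auxin precursor indole-3-butyric acid, had 75.3, 602, 36.3 and 1267 RPKM, 34.9-fold higher (32.3 to 37.8). UGT73C7, with 2.03, 2.58, 0.941 and 18.2 RPKM, was not called at 2 h and was 19.4-fold higher (11.9 to 33.6) at 12 h. Of 38 MATE transporters 9 were higher and 2 lower; the neighbours AT2G04050, AT2G04070 (0, 9.6, 0 and 27.8 RPKM) and DTX1 (1.96, 28.9, 0.491 and 75.4 RPKM) led, followed by AT1G71140 (5.62, 3.32, 3.44 and 48.7 RPKM). EDS5, which exports the precursor of salicylic acid from plastids, was 3.64-fold lower (3.14 to 4.23). Of 82 ABC transporters 19 were higher and 11 lower, a share of lower genes near the background of 15.3%. ABCC3, a vacuolar carrier of glutathione conjugates, had 15.6, 149, 14.7 and 496 RPKM, and ABCB11, a relative of auxin carriers, 26.9, 284, 18.4 and 127 RPKM, with the higher value at 2 h. Cytochromes P450 were on both sides, 24 higher and 27 lower of 136, shares not far above the 12.5% higher and 15.3% lower of all genes. PAD3, which makes the phytoalexin camalexin, had 7.42, 14.9, 6.64 and 66 RPKM, and BR6OX1, an enzyme of brassinosteroid synthesis, 4.69, 4.51, 4.85 and 0.152 RPKM.

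**Figure D4:**
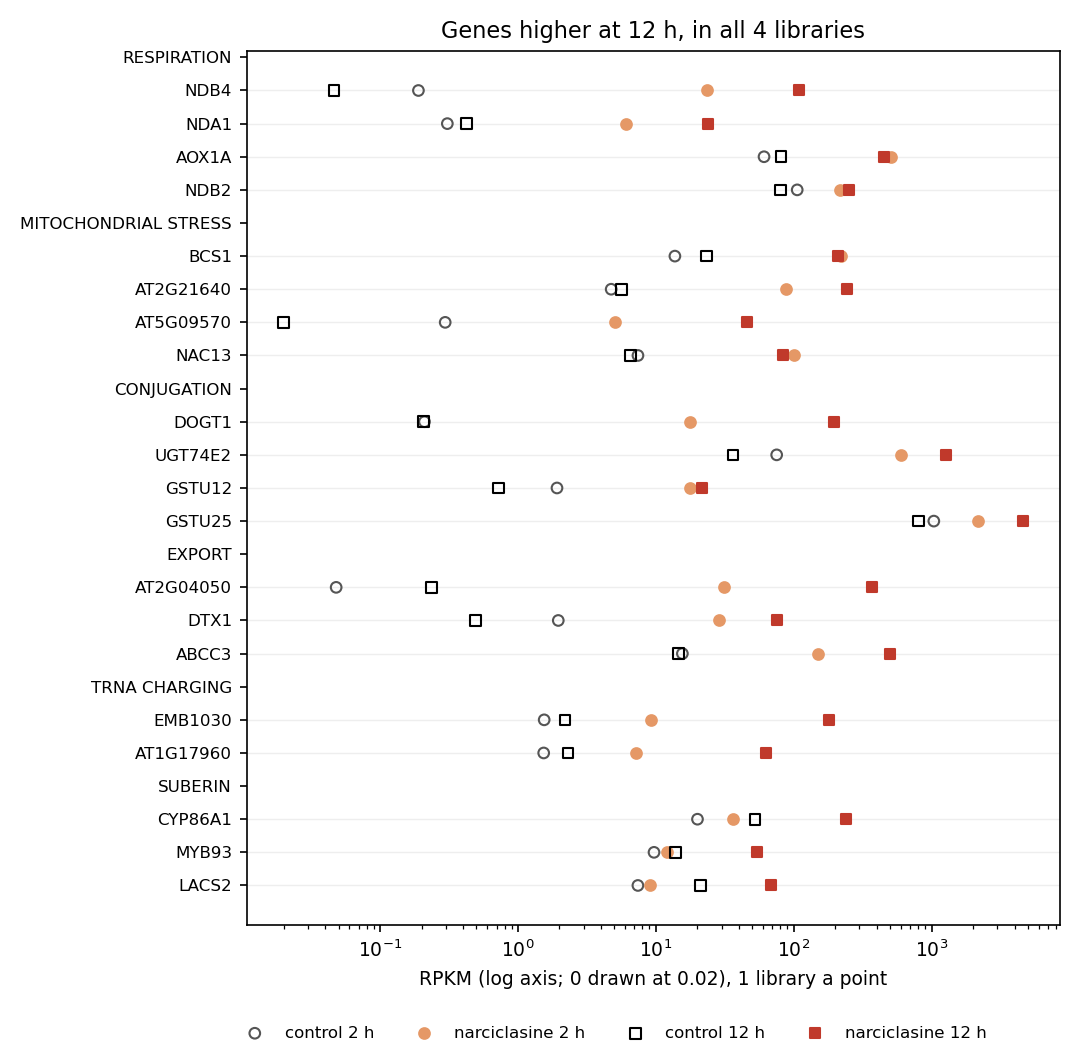
RPKM (log axis) of 20 genes called higher at 12 h in each of the 4 libraries, 1 point a library; open symbols are controls, filled symbols narciclasine, circles 2 h and squares 12 h. For the 17 genes outside the suberin group both filled symbols lie to the right of both open ones; for the 3 suberin genes the filled square does.

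Genes of the translation machinery, the process that narciclasine inhibits, were called higher more often than lower against control 12 h. Most of these calls did not hold against control 2 h. Of 51 genes annotated as aminoacyl-tRNA synthetases or ligases, which charge tRNAs with amino acids, 11 were higher and 3 lower, median 0.72. Of 82 initiation and elongation factors 19 were higher and 4 lower, median 0.42. The median log2 ratio of control 12 h to control 2 h was -0.24 and -0.23 in these lists, and only 3 of the 11 and 4 of the 19 held against both controls. Among those that held, EMB1030, an alanyl-tRNA synthetase, had 1.55, 9.25, 2.2 and 181 RPKM, 82.5-fold higher (66.3 to 104), and AT1G17960, a threonyl-tRNA synthetase, 1.54, 7.22, 2.31 and 62.5 RPKM, 27-fold higher (20 to 37.5). The lysyl-tRNA synthetase ATKRS-1 also held, with a smaller ratio, at 77.2, 96.8, 57.5 and 166 RPKM. The eIF3 subunit genes EIF3C, at 110.4, 121, 79.3 and 214 RPKM, and EIF3A, at 85.9, 107, 59.9 and 162 RPKM, were called against control 12 h alone, while the isoform gene EIF3G2 had 8.98, 18.5, 5.73 and 23.9 RPKM and held against both. Of 99 genes annotated as ribosomal proteins, 7 were higher and 3 lower, median 0.14, below the background shares, and the median against control 2 h was -0.20.

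DEAD-box RNA helicases, which remodel RNA in ribosome assembly, splicing and translation, gave 14 higher and 1 lower of 29, median 0.84. Of the higher ones 5 held against both controls, and the median against control 2 h was 0.56. AT1G71370 had 0, 0.107, 0.0859 and 3.71 RPKM and AT5G60990 14.3, 24.3, 11.3 and 38.7 RPKM. Storekeeper-related DNA-binding proteins gave 7 of 13 higher and 0 lower, median 1.55, 6 of them against both controls, for example AT4G25210 at 41.3, 55.9, 33.7 and 99.3 RPKM. The promoter element telo-box, AAACCCTA, common in genes of the translation machinery, lay in 4.28% of all tested promoters, 6.77% of those called higher and 3.1% of those called lower.

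Genes of protein folding in the endoplasmic reticulum were lower, while proteasome subunits were almost all above control by less than 2-fold. Of 39 proteasome subunits 1 was called higher and 0 lower, with a median of 0.59 and 37 members with a positive log2 ratio; the control change of this list had a median of -0.16. The called member was PAE1, at 87.9, 94.3, 77 and 159 RPKM, which was not called against control 2 h. Of 16 genes for folding in the endoplasmic reticulum 9 were lower and 1 higher, median -1.23, and all held against both controls. The calreticulin gene CRT1b, a folding chaperone for glycoproteins, had 364, 148, 235 and 50.6 RPKM, SHD, the HSP90 of the reticulum, 362, 142, 215 and 57.5 RPKM, and BIP2, its HSP70, 450.2, 145, 225 and 82.3 RPKM. In each the treated library lay below the control of the same time, and 10 genes of this list were called lower at 2 h. BZIP60, a transcription factor of the unfolded protein response that activates such chaperones, stood apart at 39.4, 179, 45 and 121 RPKM. Small heat shock proteins gave 2 higher and 1 lower of 29.

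Many genes of cell division were called lower at 12 h, and no member of the cyclin, cytokinesis, kinesin or tubulin lists was called at 2 h. Of 26 A, B and D cyclins 19 were called lower and 0 higher, median -1.75, and the median at 2 h was -0.03; 18 held against both controls. CYCA2;3, an A2-type cyclin known to hold back endoreduplication, had 6.34, 6.55, 6.11 and 0.756 RPKM and was 8.09-fold lower (5.08 to 13.5). Of 17 cytokinesis genes 10 were lower and 0 higher, median -1.46. SYP111, the syntaxin that fuses vesicles at the forming cell plate, had 31.6, 29.6, 26.4 and 6.1 RPKM; PLE, a MAP65 protein that bundles microtubules of the phragmoplast, had 5.29, 6.36, 5.64 and 1.01 RPKM; and the phragmoplast motor KINESIN-12B had 5.59, 5.54, 4.65 and 0.735 RPKM. All 3 were lowest in narciclasine 12 h, with the other libraries close to each other. Of 15 genes for condensin, cohesin and the spindle checkpoint 3 were lower and 0 higher, median -0.28, a share near the background. Of 27 kinesins 15 were lower and 1 higher. In control 12 h alone 1 RPKM was reached by 7 kinesins and 4 cytokinesis genes, all called lower, and by 4 cyclins, 3 of them called lower. In narciclasine 12 h alone it was reached by 1 cyclin, which was not called higher. Of 15 tubulin genes 9 were lower and 0 higher, median -1.18, with TUB1 at 151, 120.2, 163 and 9.31 RPKM, 17.5-fold lower (15.3 to 20.1), and TUB5 at 97.5, 95.3, 81.7 and 5.67 RPKM, 14.4-fold lower (12.1 to 17.2). Against both controls 13 kinesins and 8 tubulins were lower. TUA2 and TUA4, of the alpha class, were 6.44-fold lower (5.98 to 6.93) and 5.92-fold lower (5.55 to 6.32).

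Promoters of mitotic genes carry MSA elements, bound by MYB3R factors, whose core AACGG was searched on both strands of the same windows. It lay in 13 of 17 cytokinesis genes (76.5%), 12 of 26 cyclins and 13 of 27 kinesins, beside 24.7% of all tested promoters. A raised share was not particular to these lists. Core and linker histone genes held it in 22 of 44 windows (50%), in 7 of the 10 called lower and 1 of the 7 called higher. Over all genes called lower the share was 24.6%, near that background. CYCB1;3, CYCB1;1 (6.63, 5.37, 5.45 and 1.56 RPKM) and PLE are shown because each is a mitotic gene called lower with more than 1 match, CYCB1;3 being chosen after its values (6.83, 6.84, 7.48 and 2.04 RPKM) were seen; capitals mark the core.

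CYCB1;3 (chr3:3627274-3627573, minus strand): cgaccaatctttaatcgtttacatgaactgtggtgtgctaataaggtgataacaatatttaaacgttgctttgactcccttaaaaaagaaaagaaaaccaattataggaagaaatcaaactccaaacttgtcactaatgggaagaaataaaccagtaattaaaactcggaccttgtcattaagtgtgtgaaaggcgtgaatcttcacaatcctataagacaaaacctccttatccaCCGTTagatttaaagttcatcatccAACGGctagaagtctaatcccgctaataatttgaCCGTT

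CYCB1;1 (chr4:17624309-17624608, minus strand): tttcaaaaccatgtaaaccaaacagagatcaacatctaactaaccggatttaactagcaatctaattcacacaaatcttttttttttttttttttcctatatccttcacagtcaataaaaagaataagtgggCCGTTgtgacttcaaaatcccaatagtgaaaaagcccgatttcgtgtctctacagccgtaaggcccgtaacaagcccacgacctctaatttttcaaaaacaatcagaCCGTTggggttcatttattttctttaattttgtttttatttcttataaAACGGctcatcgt

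PLE (chr5:20964538-20964837, minus strand): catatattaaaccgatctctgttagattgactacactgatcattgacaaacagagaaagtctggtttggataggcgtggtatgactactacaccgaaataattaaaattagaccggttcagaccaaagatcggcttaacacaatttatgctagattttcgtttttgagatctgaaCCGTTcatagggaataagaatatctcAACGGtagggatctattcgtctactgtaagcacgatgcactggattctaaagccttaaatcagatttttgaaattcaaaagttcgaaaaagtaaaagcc

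Histone genes were on both sides, 7 higher and 10 lower of 44, beside 12.5% higher and 15.3% lower of all genes. AT5G10980, an H3.3 gene expressed outside S phase, had 305, 517, 282 and 939 RPKM, while HTA11, an H2A.Z variant, had 46.8, 31.5, 41.3 and 6.51 RPKM and AT5G10390, another histone gene, 22.7, 19.5, 20.8 and 4.44 RPKM. Of 19 DNA damage genes 4 were higher and 5 lower. The higher ones included NAC044, a factor that delays the G2 phase (0.474, 19.8, 0.708 and 29 RPKM), and the cyclin-dependent kinase inhibitors AT5G02220, also named SMR4 (4.85, 19.3, 5.17 and 33 RPKM), and AT1G07500, also named SMR5 (3.06, 4.06, 5.61 and 32.6 RPKM). The repair gene BRCA1 was 2.1-fold lower (1.48 to 3.01), so members of this list stood on both sides.

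Most lists of cell wall proteins held more lower than higher genes, in shares above the background of 15.3%. Laccases, which polymerise lignin, were an exception with 3 higher and 2 lower of 14, and class III peroxidases, which oxidise wall phenolics, were on both sides with 11 higher and 18 lower of 53. Of 43 arabinogalactan proteins, glycoproteins of the wall and membrane surface, 26 were lower and 3 higher, median -1.65. AGP14, which affects root hair length, had 673, 611, 968 and 99.4 RPKM, AGP22 240.5, 344, 334 and 21.5 RPKM and AGP30 417, 299.6, 464 and 15.6 RPKM. AGP10 was an exception at 90.3, 129.9, 88.6 and 464 RPKM, 5.23-fold higher (4.81 to 5.71). Of 34 extensins and extensin-like proteins 20 were lower and 2 higher, led by ELP at 379, 334, 369 and 17.7 RPKM, 20.8-fold lower (18.2 to 23.9). Of 27 xyloglucan endotransglucosylases, which cut and rejoin wall xyloglucan, 15 were lower and 2 higher. XTH15 had 75, 63.7, 116 and 5.68 RPKM, while TCH4, a member known to respond to touch, had 10.4, 37.1, 19 and 107 RPKM. Expansins, which loosen the wall, gave 8 lower and 1 higher of 16, with EXPA8 10.8-fold lower (6.72 to 18.4). Of 48 pectin lyase-like proteins 25 were lower and 1 higher, for example PME5 at 11.8, 9.18, 8.65 and 0.427 RPKM. Of 9 genes listed as pectin methylesterases 3 were lower and 1 higher. Of 27 cellulose synthases and related glycosyltransferases 13 were lower and 1 higher; CSLA11 was 13.2-fold lower (5.75 to 37.4) and CSLE1 2.54-fold higher (2.43 to 2.65). Of the lower genes, 25 arabinogalactan proteins, 17 extensins, 13 xyloglucan enzymes, 8 expansins, 24 pectin lyase-like proteins and 12 cellulose synthases and relatives were lower against both controls. Of the 4 hair cell markers, summing to 574 RPKM in control 12 h and 223 in narciclasine 12 h, 3 were called lower. The sums rest largely on PRP3, at 376 and 136 RPKM in these libraries, and EXPA7, at 143 and 57.8. The other marker, RHD6, had 14.8 and 16.6 RPKM and was not called. The part of hair cells in these lists was not tested.

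Of 29 aquaporins, the water channels of the plasma membrane and vacuole, 20 were lower and 1 higher, median -1.65, and 18 of the 20 held against both controls. PIP2;4 had 139.8, 110.1, 251 and 20.5 RPKM and was 12.2-fold lower (10.9 to 13.7). PIP1C had 374, 364, 497 and 63.2 RPKM, PIP3 469, 386, 655 and 89.6 RPKM, and the abundant vacuolar channel GAMMA-TIP 1554, 1072, 1940.2 and 507 RPKM. In each the 12 h control was above the 2 h control and the treated 12 h library was the lowest of the 4. The median at 2 h was -0.42, with 1 gene called lower and 2 higher. NIP2;1, the only member called higher at 12 h, had 1.29, 3.26, 1.05 and 2.37 RPKM.

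**Figure D5:**
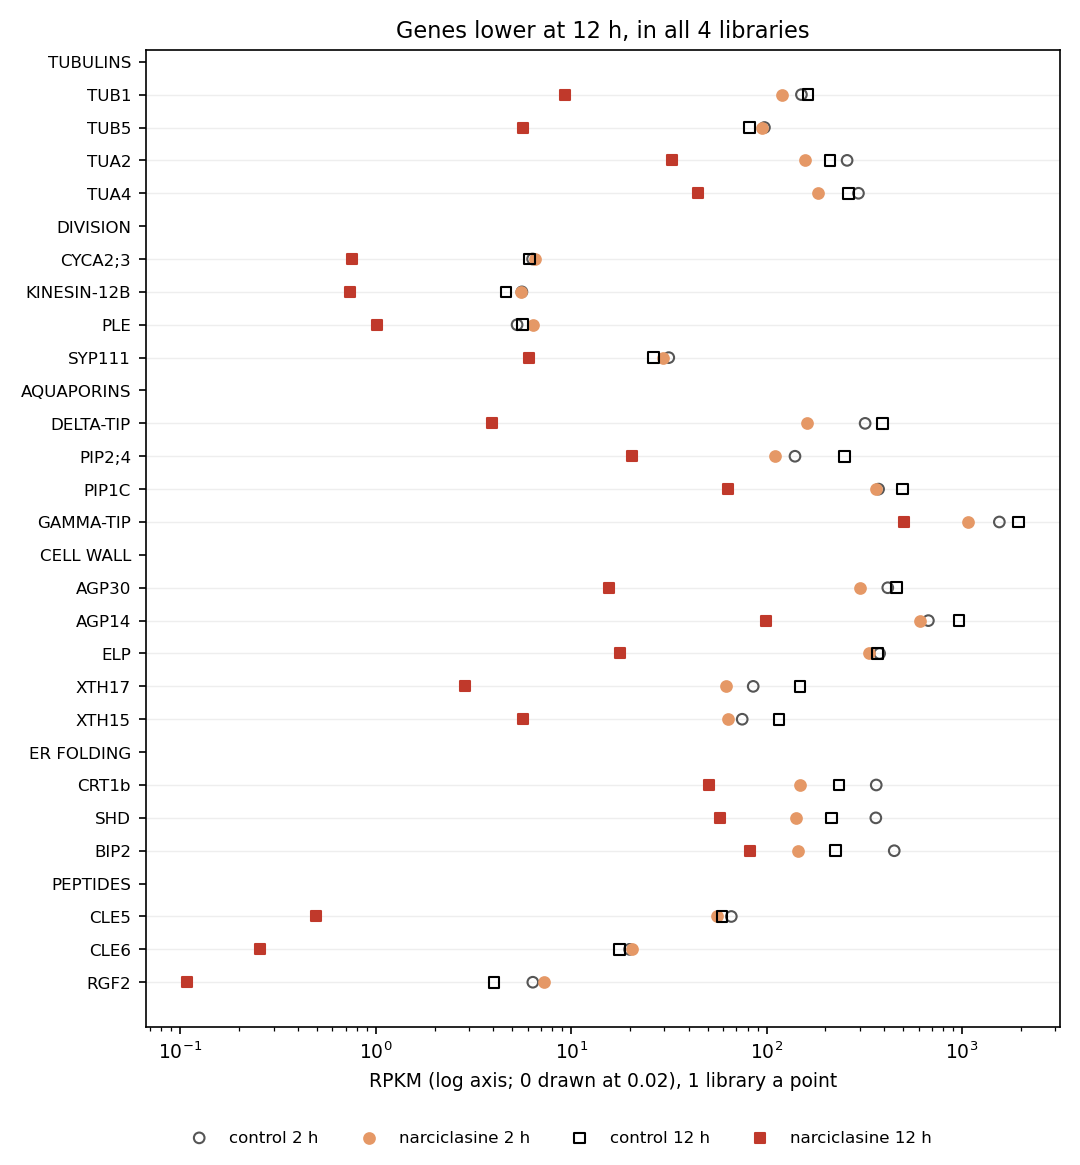
RPKM (log axis) of 23 genes called lower at 12 h in each of the 4 libraries, 1 point a library; open symbols are controls, filled symbols narciclasine, circles 2 h and squares 12 h. The filled square of narciclasine 12 h is the leftmost point of every gene; the 3 endoplasmic reticulum genes are also lower in narciclasine 2 h.

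Suberin genes were higher and some Casparian strip genes lower. Suberin is a polyester of fatty acids and glycerol laid on endodermal walls after the Casparian strip. Of 20 suberin genes 11 were higher and 1 lower, median 1.203, and all held against both controls. CYP86A1, the fatty acid hydroxylase of suberin synthesis, had 20.1, 36.2, 52.6 and 238 RPKM, 4.54-fold higher (4.25 to 4.84); the acyltransferase gene GPAT5 had 8.63, 7.72, 16.6 and 47.8 RPKM; the fatty alcohol producer FAR4 had 5.38, 5.58, 14 and 41.9 RPKM; and the exporter ABCG20 had 8.76, 8.89, 17.4 and 53.5 RPKM. MYB93, a factor of the endodermis over lateral root primordia, had 9.71, 12.1, 14 and 53.9 RPKM. None of these was called at 2 h, and control 12 h was itself above control 2 h in this list, by a median log2 of 0.94. GPAT5 was chosen after its values were seen. The 1 lower member was CER4, an alcohol-forming reductase of waxes, at 13.5, 9.92, 43.4 and 0.597 RPKM. Of 11 Casparian strip genes 4 were lower and 0 higher, median -0.91, with CASP5, a scaffold protein of the strip, at 57.5, 41.6, 69.7 and 2.84 RPKM, CASP4 at 80.7, 74.4, 86.8 and 32.2 RPKM and PER64, a peroxidase that polymerises its lignin, at 177, 168, 177 and 80.2 RPKM. The 4 endodermis markers summed to 728 RPKM in control 12 h and 397 in narciclasine 12 h with 0 called, and their part in these counts was not tested.

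Mineral nutrition genes divided by element. Of 23 genes of nitrate uptake and assimilation 9 were higher and 0 lower, median 0.56, 6 of them against both controls. NRT1.8, which takes nitrate out of the xylem, had 1.63, 12.1, 1.29 and 26.2 RPKM, and NRT2:1, the main high-affinity uptake carrier, 10.9, 24.8, 5.98 and 40.6 RPKM. GSR2, a cytosolic glutamine synthetase also named GLN1;2, had 568, 746, 932 and 2953 RPKM, a gain in RPKM second to GSTU25 among coding genes. Of 32 iron and zinc genes 10 were higher and 2 lower. FRO2, the ferric reductase of the root surface, had 1.8, 2.16, 6.81 and 22 RPKM, and IRT1, the iron importer, 15.5, 5.38, 49.8 and 142 RPKM: IRT1 was lower than its control at 2 h and higher at 12 h. IRT2, a close relative, was lower at 12 h, with 14.2, 15.2, 23.9 and 5.69 RPKM. Sulfur genes gave 3 higher and 4 lower of 18, shares not far above the 12.5% and 15.3% of all genes. SULTR1;1, a sulfate importer, had 8.12, 4.47, 6.52 and 0.882 RPKM. EIL3, the regulator of sulfur limitation, had 8.66, 12.5, 8.0 and 26.2 RPKM. Phosphate starvation genes gave 1 higher and 2 lower of 18. Of 72 amino acid transporters 24 were lower and 5 higher, median -0.65, for example UMAMIT4 at 64.3, 69.2, 90.9 and 4.95 RPKM.

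NAC and WRKY factors were mostly called on the higher side, bHLH factors more often on the lower, and MYB factors in shares near those of all genes. Of 67 NAC factors 21 were higher and 6 lower, and of 58 WRKY factors, best known from defence, 15 and 2. Over all genes the shares were 12.5% higher and 15.3% lower. In narciclasine 12 h alone 1 RPKM was reached by 7 NAC factors, 6 of them called higher. In control 12 h alone it was reached by 5 NAC factors, 3 of them called lower. Of the WRKY factors 2 reached it in each of these libraries alone, all called. NAC003 had 6.86, 9.29, 9.33 and 97.4 RPKM, so that it was near its control at 2 h and 10.4-fold higher (8.84 to 12.4) at 12 h. WRKY51 had 2.84, 8.09, 2.27 and 23.3 RPKM. Of 47 ERF and DREB factors 12 were higher and 6 lower, of which 11 and 1 held against both controls. Over the same 47 genes the median log2 ratio was -0.07 against control 12 h and 0.70 against control 2 h. DREB19 had 0.461, 1.25, 0.564 and 47 RPKM, not called at 2 h, while DREB2C had 4.77, 45.8, 4.14 and 62.9 RPKM and ERF71, a factor of the low-oxygen response, 5.03, 114, 1.85 and 49.9 RPKM. The cold-response factors CBF4 and CBF2 stood below their controls at both times, with 1.12, 0.104, 3.87 and 0.704 RPKM and 4.37, 1.12, 17.5 and 7.84 RPKM; both were higher in control 12 h than in control 2 h, and neither was called against control 2 h. MYB factors gave 11 higher and 15 lower of 73, with a median of 0.00, and bHLH factors 8 and 19 of 84. Of these bHLH factors 9 reached 1 RPKM in control 12 h alone, 8 of them called lower. In narciclasine 12 h alone 1 bHLH factor reached it and was called higher. The filter itself thus favours lower bHLH members. MYB61 had 13.8, 9.56, 21.9 and 1.54 RPKM and XND1, a repressor of xylem differentiation, 1.18, 1.66, 1.18 and 0.073 RPKM, both lowest in narciclasine 12 h. ICE1, an activator of the CBF genes, had 12.1, 11.2, 8.56 and 2.02 RPKM.

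Secreted peptides and receptor kinases were more often lower than higher at 12 h. Of 63 genes for signalling peptides 24 were lower and 2 higher, median -0.66, beside 15.3% lower and 12.5% higher of all genes. In control 12 h alone 1 RPKM was reached by 13 of the 63, 10 of them called lower. In narciclasine 12 h alone it was reached by 2, 1 of them called higher. The filter itself thus favours lower members of this list. At 2 h 12 of 66 peptide genes had been higher and 2 lower, beside 5.08% higher and 1.81% lower of all genes. The neighbours CLE5 and CLE6 had 66, 56, 59.1 and 0.497 RPKM and 19.9, 20.4, 17.7 and 0.257 RPKM, and CLE7, next to them, had 16 reads in control 12 h and none in narciclasine 12 h, at least 6.61-fold lower. RGF2, a peptide that maintains the meristem, had 6.36, 7.28, 4.03 and 0.108 RPKM. Of 141 receptor kinases 35 were lower and 10 higher, where at 2 h 23 of 143 were higher and 1 lower. In control 12 h alone 1 RPKM was reached by 12 receptor kinases, 11 of them called lower. In narciclasine 12 h alone it was reached by 5, 4 of them called higher. The difference between the times was not tested. Low-oxygen genes gave 5 higher and 1 lower of 13: HB1, a haemoglobin, had 11.7, 22.1, 10.6 and 76 RPKM, PDC2, a pyruvate decarboxylase of fermentation, 19.8, 27.4, 31.1 and 104 RPKM, and ADH1, the alcohol dehydrogenase, 18, 8.78, 2.31 and 34.4 RPKM, which was lower at 2 h and higher at 12 h than its control and was not called against control 2 h.

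Among metabolic genes, all 8 tested terpenoid cyclases were lower, median -2.05, with AT5G48110 at 58.1, 53.6, 50.6 and 6.72 RPKM. Of the 8, 3 reached 1 RPKM in control 12 h alone, so the filter favours lower members there. The triterpene cluster genes for thalianol and marneral gave 5 lower of 7; MRN1, marneral synthase, had 14.7, 22.2, 51.7 and 4.69 RPKM, with control 12 h well above control 2 h, and 3 of the 5 held against both controls; over the same 7 genes the median log2 ratio was -1.10 against control 12 h and 0.56 against control 2 h. Fatty acid synthesis genes gave 4 lower and 1 higher of 22, a share of lower genes near the background of 15.3%. The higher gene was ACC2, a large acetyl-CoA carboxylase of 1 polypeptide that is targeted to plastids, at 3.22, 3.25, 2.56 and 32.7 RPKM, 12.8-fold higher (10.8 to 15.3). BCCP2 and CAC1, nuclear genes for subunits of the multi-subunit plastid acetyl-CoA carboxylase, were lower: BCCP2 had 93.1, 73.6, 79 and 15.5 RPKM, and CAC1 was 2.06-fold lower (1.84 to 2.32). ACC2 thus stood on the opposite side from BCCP2 and CAC1 at 12 h, and none of these genes was called at 2 h. Values for other subunits of the multi-subunit form are not given here, so the form as a whole is not described. Of 34 plastid-encoded genes 6 were lower and 0 higher, median -0.67, a count near the background of 15.3% lower; green tissue markers were also lower in narciclasine 12 h, and their part in this was not tested. Dehydrins and LEA proteins, which protect cells in drying, gave 11 lower and 4 higher of 29: RAB18 (AT5G66400) had 18.7, 7.0, 35.5 and 1.87 RPKM and the abundant dehydrin AT1G54410 2833, 2004, 3204 and 1337 RPKM.

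In absolute level, gains after GSTU25 and GSR2 were largest for GAPC1, a cytosolic glyceraldehyde-3-phosphate dehydrogenase (1320.1, 1640.2, 1188 and 2619.8 RPKM), then GSTU24, UGT74E2 and TT4, the chalcone synthase of flavonoid synthesis (383, 251, 858 and 1816 RPKM). GAPC1 was not called against control 2 h. AT2G41730 and AT2G18193 had 29.4, 1189.8, 22.7 and 716 RPKM and 31.8, 641, 18.6 and 625 RPKM, both at or above their 12 h level already at 2 h. Losses were largest for AT1G54410, GAMMA-TIP and TIP2, another vacuolar water channel (1370.1, 831, 1711 and 357 RPKM), followed by GRP7, an RNA-binding protein of the clock and cold response (1853, 1689, 1814 and 755 RPKM), and PIP1B (1363, 839.9, 1545 and 491 RPKM). GASA1, a small gibberellin-regulated secreted protein, had 699, 798, 1194 and 185 RPKM and was 6.45-fold lower (6.13 to 6.8). ATMS1, the methionine synthase of the methyl cycle, had 1402, 1030.3, 1170.1 and 355 RPKM, 3.3-fold lower (3.23 to 3.36).

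Among coding genes called, 35 had no read in control 12 h and 37 none in narciclasine 12 h. Beside AT5G09570, AT2G18190 and AT2G04070, AT4G05380, a nucleoside triphosphatase, had 338 reads in narciclasine 12 h and 0, 0.752, 0 and 15.4 RPKM, at least 90.9-fold higher. On the other side AT4G37950, a rhamnogalacturonate lyase of pectin chosen after its values were seen, had 117 reads in control 12 h and 0.953, 2.1, 4.26 and 0 RPKM, at least 48.3-fold lower, and AT2G31540, a GDSL lipase, 2.87, 2.23, 5.83 and 0 RPKM, at least 34.3-fold lower. In control 2 h AT4G37950 had 32 reads and stood under the filter of 1 RPKM, as did narciclasine 12 h, so it was not tested against control 2 h.

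63 genes were higher than control at 2 h and lower at 12 h, and 23 the reverse, such as IRT1 and ADH1 above. The peroxidase AT1G14550 had 23.2, 97.3, 33.9 and 2.25 RPKM and its neighbour PER4 65.8, 228, 84.7 and 20.6 RPKM: both were above control at 2 h and the lowest of the 4 libraries at 12 h. IPT5, which makes cytokinin, had 7.2, 18.7, 6.51 and 1.38 RPKM, and the sulfotransferase ST4C 6.89, 21.5, 5.53 and 0.381 RPKM. PER4, IPT5 and ST4C were chosen for this paragraph after their values were seen.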

How the data were processed

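RNA sequencing libraries of 4 groups, 1 library each, were analysed: control and narciclasine root tips at 2 h and 12 h. The values are RPKM per gene as deposited by the authors, in 1 table with 33602 identifiers, and 0 columns of per-sample values were left unused. Bowtie 0.12.2 and edgeR are named in the submitters' processing notes, which also give the build as mm8, a mouse build, although the identifiers are Arabidopsis loci; the annotation, counting rule and strand setting behind the table were not given in the sources used here. Near-identical and overlapping genes, among them glutathione transferases, MATE proteins, DUF295 genes, histones and tubulins, may therefore share reads. Names, biotypes and promoter sequences came from RefSeq's TAIR10.1 annotation, in which 32835 identifiers matched.

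Library sizes and read counts were recovered from the RPKM of low genes, whose values are whole multiples of the worth of 1 read. The libraries came to 14541412 (control 2 h), 14244108 (narciclasine 2 h), 11880278 (control 12 h) and 14724075 reads (narciclasine 12 h), with 97.5% to 98.0% on genes. Of 22816 genes above 0 in at least 2 libraries, 99.9% gave a length within 0.02 bases of a whole number, and 1532 further genes were scaled by annotated length. Of the recovered lengths 9.97% equal the summed exons of TAIR10.1 and 24.2% lie within 5% of them. Reads and intervals of those 1532 genes are therefore approximate. For the other recovered genes the annotated length helped to choose the whole multiple of the reads, so some of their reads and intervals may be off too. A further 48 genes were not recovered and 9206 were at 0 throughout. Both the recovery and the calls were tested on simulated data. Reads were used only for exact Clopper-Pearson intervals and the floor of 3 reads, both of which cover counting error only; folds are ratios of the deposited RPKM.

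Lists were described by counts and medians with no test. Members and all 76 lists were chosen with earlier results of these data known, 69 loci that matched a list by a shared synonym alone were left out, and 11 lists of annotated protein families were added after values were seen. Named genes are, among coding genes called, the 12 higher and 12 lower with the largest RPKM difference, up to 5 higher and 5 lower of each list and 8 and 8 transcription factors by the interval bound farthest from 1, any member of lists under 20, and 6 genes at 0 in 1 library; others are said to be chosen after their values were seen, and WOX5 is a cell type marker. Alternatives covered scaling, the control used, pseudocount, filter, fold threshold and interval. Python 3.11.15, pandas 2.3.3, NumPy 2.4.6, SciPy 1.17.1 and Matplotlib 3.10.9 were used.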

Additional observations from a re-analysis of the deposited data

Results flagged for a closer look

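Of the genes named, 7 were called in opposite directions at 2 h and at 12 h against the control of the same time, and this difference between the times was not tested, since each group held 1 library. The ratios of narciclasine to control, first at 2 h and then at 12 h, were 3.13 and 0.0689 for ST4C, 3.47 and 0.244 for PER4, 4.19 and 0.0664 for AT1G14550, and 2.60 and 0.212 for IPT5. For AT4G37950 they were 2.2 and 0, with no read in narciclasine 12 h. In the other direction ADH1 had 0.488 and 14.9, and IRT1 0.347 and 2.85. The controls differed from each other by the same call for ADH1, AT4G37950 and IRT1. In narciclasine 12 h ADH1 was 1.91-fold above control 2 h and not called, and IRT1 was called higher. AT4G37950 had 32 reads in control 2 h, under the RPKM filter, and was not tested against it.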

How the results depend on the processing

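With 1 library a group, variation between plants, plates or libraries was not measured, and nothing here says how far the counts would move in a repeat. No paired analysis was possible because each group held 1 library and the result comes from no test. Against 2375 genes higher and 2893 lower, a threshold of 1.5-fold gave 4337 and 4636 and one of 4-fold 589 and 962. The other settings stayed within 1.5 times of both counts: they ranged from 1593 to 2534 higher and from 1956 to 3264 lower. Upper-quartile scaling, which moved log2 ratios by -0.10, gave 2057 and 3264. In at least 1 setting 13 of 76 list medians changed sign, 12 of them from values between -0.47 and 0.24, within 1.5-fold of no difference. The other, F-box associated interaction domain proteins, had 1.00 at an RPKM of at least 1 and -0.19 with no filter. With control 2 h in place of control 12 h, 8 of 77 medians (76 lists and all genes) moved by over 1.5-fold, among them, over the members that pass the filter in that comparison, suberin synthesis to 2.07, storekeeper-related regulators to 0.62 and the thalianol and marneral clusters to -0.29. Of 141 named genes called, 132 were called the same way against control 2 h; CBF2 changed sign there, to a log2 ratio of 0.84, and was not called. The causes were not tested.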
